A study of Mus musculus with 6 samples.

Results

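Cholesterol synthesis was followed through 7 genes in the mouse RNA of livers that carried a human tumor, namely Hmgcs1, Idi1, Fdps, Fdft1, Sqle, Lss and Srebf2. They were chosen by name as sterol-regulated genes, and all 7 were found among the 56884 genes of the mouse count table. Of them 6 encode enzymes and Srebf2 encodes the transcription factor that controls them, so that lipoprotein uptake is represented only by the 10 other genes described further on. The samples were 6 liver libraries from male athymic BALB/c (nu/nu) mice, given as 6 weeks old, with human hepatocellular carcinoma cells of the line QGY-7703 growing in the liver. All mice received an AAV8 vector by the tail vein 1 week after implantation and were followed for 3 more weeks. The vector carried a control siRNA in the 3 siControl libraries, labelled wild type, and an siRNA against mouse Aatf in the 3 siAATF libraries, labelled knockdown. In the study's methods the siRNA is driven by the TBG promoter, known to be active in hepatocytes, and the tumor comes from 1 cell line. Whether each library came from a separate mouse is not stated, so that p-values measure the spread between these libraries, which may be technical.

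Animal cells build cholesterol from acetyl-CoA through mevalonate, farnesyl diphosphate, squalene and lanosterol. The enzymes are switched on together by SREBP-2, the product of Srebf2, which is held in the endoplasmic reticulum by the sterol sensor Scap and the Insig proteins and is cut free in the Golgi when sterols run low. The liver is a main site of this pathway, and hepatocytes also clear lipoproteins from blood and turn cholesterol into bile acids. NF-Y, a factor that binds the letters CCAAT, works beside SREBP at many of these promoters.

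The base sequences in front of the members are shown because they carry the letters that this background names. Promoters were read from GRCm39 as 250 bases before and 50 after the canonical start of GENCODE release 39. The letters CCAAT, on either strand, were present in all 7 members, against 39.9% of the 21770 protein-coding promoters of the same length. Among the lists described below, they were in 8 of 10 hepatocyte markers, 9 of 14 other synthesis enzymes and 6 of 10 lipoprotein genes. They were in 7 of 14 efflux and disposal genes, 4 of 9 non-sterol genes and 3 of 10 SREBP control genes. The bases around the box nearest before the start are given below, 5′ to 3′ on the strand of the gene, with CCAAT or its reverse complement in capitals.
Hmgcs1 (chr13:120151885-120151913, + strand): ctgagtcccgggATTGGcagaggtagccg
Idi1 (chr13:8935871-8935899, + strand): gctagATTGGcaATTGGctggaggcatgt
Fdps (chr3:89009374-89009402, - strand): gaggtaatttagCCAATcagcgaactagg
Fdft1 (chr14:63415445-63415473, - strand): ctccggcttccgATTGGttaacgttttcc
Sqle (chr15:59186807-59186835, + strand): gtgcgcgctctcATTGGttcggacggcgt
Lss (chr10:76367365-76367389, + strand): ggtgatgctctgATTGGccgagctc
Srebf2 (chr15:82031323-82031351, + strand): cttcgcgcgccgATTGGctaatgcaagcc
The box began between 85 bases (Hmgcs1) and 13 bases (Lss) before the start, and Idi1 held 2 copies side by side. A strict sterol regulatory element, searched as TCACNCCAC on both strands, was present in 1 of the 7 members and in 1.34% of all promoters. It lay in Hmgcs1, 232 bases before the start, and is shown with its match in capitals.
Hmgcs1 (chr13:120151740-120151768, + strand): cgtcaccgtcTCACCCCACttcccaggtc
A match is a description of the letters, and its absence elsewhere says only that these letters were not in the window. The GC box GGGCGG, searched in the same way, was present in 5 of the 7 members and in 42.5% of promoters, and the E-box CACGTG in 0 of the 7 and in 7.81%.

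The groups differed in the source of their RNA before any member was examined. Mouse counts numbered 213022 to 913584 in siControl, 0.778% to 1.93% of all gene counts, and 11835898 to 42563694 in siAATF, 97.9% to 99.0%. The origin of the mouse RNA also differed. Hepatocyte markers fixed for this comparison were higher in siAATF for 10 of 10 genes, 9 of them with an adjusted p under 0.05, and their summed level was 3760 to 9343 CPM in siControl and 19212 to 119213 in siAATF. Much of this sum came from Hpx, the marker not called, whose groups overlapped, and without it the sum was 1512 to 4523 against 13518 to 50869. Fibroblast markers were lower for 8 of 8 genes, 7 called (340.2 to 489.97 CPM in siAATF against 8343 to 12405), as were those of endothelial cells for 6 of 6, 5 called (58.9 to 179 against 441 to 582) and of macrophages for 6 of 6, all called (99.8 to 149.6 against 829 to 3603), and of cycling cells for 6 of 6, all called (4.76 to 28.3 against 126 to 220.3). Beside these counts, 17.6% of all genes tested were called higher and 14.4% lower. No marker of these lists was at 0 in a whole group. In bulk RNA, fewer cells of a type and less RNA per cell cannot be told apart, and neither can the siRNA and the share of tumor tissue in a library. Aatf, the target, had 12, 1 and 23 counts in the siControl libraries against 384, 109 and 340 in siAATF. Its CPM was 9.63, 2.42 and 12.8 there against 13.3, 22.0 and 18.9 in siAATF (log2 fold change 0.93, standard error 0.47, adjusted p = 0.152, edgeR). On this scale, with few siControl counts, the libraries labelled knockdown thus did not have less Aatf RNA. The study reports silencing of AATF protein by immunoblot in the tissue around the tumor of siAATF mice, and protein was not measured here. Directions below refer to the labels.

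Across the members, 4 of 7 were higher in the libraries labelled siAATF, Hmgcs1, Fdps, Lss and Fdft1, and 3 were not called in either direction, Sqle, Idi1 and Srebf2. Levels are CPM, mouse counts scaled to a common library total after TMM normalization, and a gene was called at an adjusted p under 0.05 in the quasi-likelihood test of edgeR, with p-values adjusted by Benjamini-Hochberg across the 18018 genes tested. All 7 members passed the filter of 10 counts in total. Of all genes tested, 32.0% were called, 17.6% higher and 14.4% lower. Means are given ± SD over the 3 libraries of a group. The median log2 fold change was 1.76 over the members and 0.50 over all genes tested. By the rule of the study, an unadjusted p under 0.05 with a log2 fold change of at least 2, Hmgcs1 and Fdps were called, 2 of 7, beside 13.6% of all genes higher. No overlap between the groups was seen for the 4 called members, while 34.5% of all genes lay higher and 18.1% lower in every siAATF library.

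**Figure D1:**
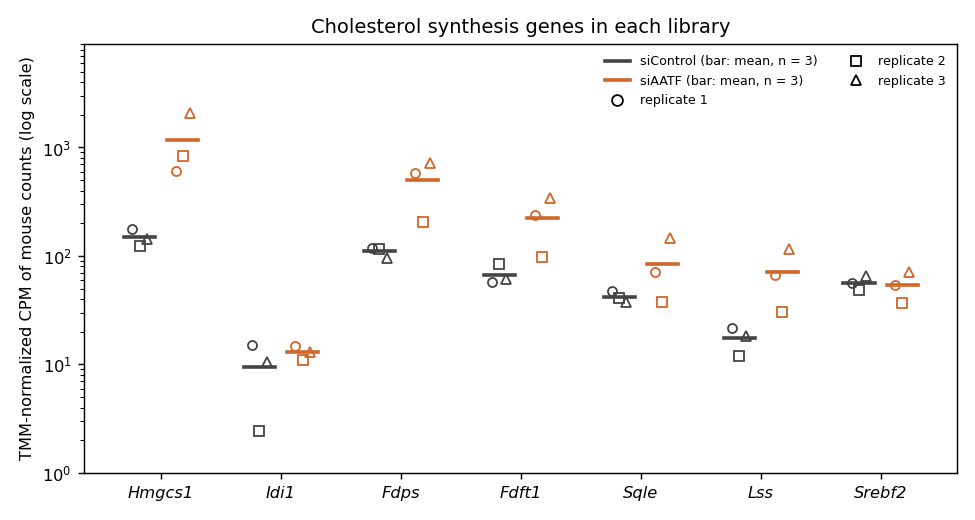
TMM-normalized CPM of mouse counts (log scale) of the 7 members in each of the 6 libraries, with a bar at the mean of each group (n = 3). The 3 siAATF libraries lie above all siControl libraries for Hmgcs1, Fdps, Fdft1 and Lss, and the groups overlap for Idi1, Sqle and Srebf2.

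Hmgcs1 encodes the cytosolic synthase that makes HMG-CoA from acetoacetyl-CoA and acetyl-CoA. The gene (ENSMUSG00000093930) lies on chromosome 13 of GRCm39, from 120151982 to 120169796 on the + strand. It had 179, 123 and 143 CPM in replicates 1 to 3 of siControl, against 610, 835 and 2065 CPM in those of siAATF. The groups did not overlap, and siAATF replicate 3 stood far above the other two. Mean levels of 149 ± 28.3 and 1170.1 ± 783 CPM differed 7.86-fold (log2 fold change 2.97, standard error 0.61, adjusted p = 0.00252, edgeR). This was the largest rise among the 7 members, and it passed the threshold with any library left out, with log2 fold changes from 2.34 to 3.31.

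Idi1 encodes the isomerase that turns isopentenyl diphosphate into dimethylallyl diphosphate, the starter unit for chain growth. It lies on chromosome 13, from 8935537 to 8942487 on the + strand (ENSMUSG00000058258). The siControl libraries held 19, 1 and 19 counts, so that the siControl level rests on few reads. In CPM these were 15.3, 2.42 and 10.6, against 14.7, 11.1 and 12.9 in siAATF. The groups overlapped, and the siAATF libraries lay close together. The log2 fold change was 0.30 (standard error 0.47, adjusted p = 0.653, edgeR), and between 0.01 and 0.71 with a library left out.

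Fdps encodes farnesyl diphosphate synthase, whose product is shared by the sterol branch and by the branches to dolichol, ubiquinone and prenylated proteins. The gene (ENSMUSG00000059743) lies on chromosome 3, from 89000895 to 89009266 on the - strand. Its CPM was 119.6, 116 and 94.8 in siControl and 582, 205 and 713 in siAATF. No siAATF library reached down to the siControl values, although replicate 2 stayed well below the other two. The means of 110.1 ± 13.4 and 500.2 ± 264 CPM differed 4.55-fold (log2 fold change 2.19, standard error 0.53, adjusted p = 0.00747, edgeR).

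Fdft1 encodes squalene synthase, which joins farnesyl units and so commits them to sterols. It lies on chromosome 14, from 63382599 to 63417027 on the - strand (ENSMUSG00000021273). Its CPM was 57.0, 84.6 and 60.8 in siControl and 238, 96.8 and 343 in siAATF. The groups did not overlap, but siAATF replicate 2 lay just above the highest siControl library. The log2 fold change was 1.76 (3.39-fold, standard error 0.50, adjusted p = 0.0176, edgeR). On the opposite strand the gene shares 774 of its 3994 exon bases with Ctsb, which had 493 to 4230 counts in siControl and 1746 to 21729 in siAATF. Whether counting used the strand is not stated, and reads from the shared bases cannot be told apart without it.

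Sqle encodes squalene epoxidase, a rate-limiting oxygen-dependent step. The gene (ENSMUSG00000022351) lies on chromosome 15, from 59186930 to 59203041 on the + strand. Its CPM was 47.4, 41.1 and 37.9 in siControl and 71.2, 37.7 and 145 in siAATF. Replicates 1 and 3 of siAATF were above all siControl libraries and replicate 2 was below them. The difference was not called (log2 fold change 1.01, standard error 0.48, adjusted p = 0.131, edgeR). It was called when siAATF replicate 2 was left out, at 1.41 (adjusted p = 0.0116, edgeR, 0.0116 to 0.956 over the alternatives).

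Lss encodes lanosterol synthase, which folds squalene epoxide into the ring system of lanosterol. It lies on chromosome 10, from 76367441 to 76391313 on the + strand (ENSMUSG00000033105). Its siControl counts were 27, 5 and 33, and its CPM was 21.7, 12.1 and 18.4 there against 67.3, 30.3 and 116.3 in siAATF. All siAATF libraries were higher, replicate 2 by the smallest margin. The log2 fold change was 1.98 (3.96-fold, standard error 0.50, adjusted p = 0.00942, edgeR).

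Srebf2, the regulator, had a CPM of 56.2, 48.3 and 65.3 in siControl and 53.6, 37.1 and 70.8 in siAATF. The gene (ENSMUSG00000022463) lies on chromosome 15, from 82031382 to 82089580 on the + strand. The siAATF libraries lay on both sides of the siControl libraries. Mean levels were 56.6 ± 8.48 and 53.8 ± 16.9 CPM, and the log2 fold change was -0.08 (standard error 0.37, adjusted p = 0.892, edgeR). These counts do not measure the cutting of the protein.

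Some of these calls were lost when a library was left out. Without siControl replicate 3, the most deeply sequenced of that group, 1 of the 7 members (Hmgcs1) was called, beside 18.8% of all genes in place of 32.0%, and the log2 fold changes of Fdps, Lss and Fdft1 were 2.07, 2.00 and 1.67 with adjusted p-values of 0.0627, 0.0551 and 0.103 (edgeR). Over all alternatives these p-values ranged from 8.59e-05 to 0.555 for Fdps, from 2.40e-05 to 0.736 for Lss and from 0.00130 to 0.992 for Fdft1. Fdft1 also lost its call without siControl replicate 1 (1.64, adjusted p = 0.0651, edgeR).

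The size of the change depended on how the libraries were scaled. TMM factors were 1.77 to 1.97 in siControl and 0.419 to 0.681 in siAATF. Scaling by library size alone moved the median of all genes from 0.50 to -1.30 on the log2 scale, and the share of called genes that were higher from 55.0% to 9.31%. Upper-quartile factors gave 44.8%, limma-voom 45.0% and thinning to equal totals 40.6%. With library size alone Hmgcs1 stood at 1.12, Fdps at 0.45, Lss at 0.23, Fdft1 at -0.0076, Sqle at -0.77, Idi1 at -1.45 and Srebf2 at -1.87, and the last 2 were the members called, as lower, beside 4.15% of all genes called higher and 40.4% lower. Another scaling shifts all genes nearly alike, and subtracting the median of all genes takes that shift away by construction. Relative to this median Hmgcs1 was 2.47 with TMM and 2.43 with library size alone, Fdps 1.68 and 1.75, Lss 1.48 and 1.53, Fdft1 1.26 and 1.30, Sqle 0.51 and 0.53, Idi1 -0.20 and -0.14, and Srebf2 -0.58 and -0.57.

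**Figure D2:**
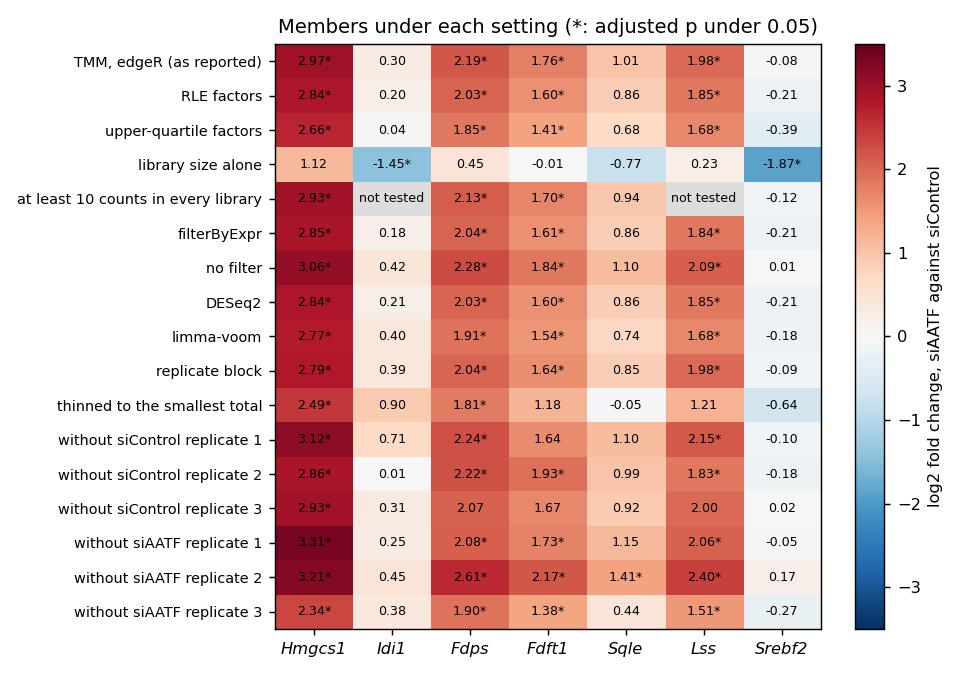
Log2 fold change of each member (columns) under the reported setting and 16 alternatives (rows), with a star at an adjusted p under 0.05 and grey where the gene was not tested. Hmgcs1 reads 1.12 to 3.31 and is starred in every row but scaling by library size alone, where Fdft1, Sqle and Idi1 fall below 0, as does Sqle after thinning.

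A ratio between genes of the same library needs no scaling. The counts of each enzyme were therefore divided by those of Srebf2. For Hmgcs1 the ratio was 3.19, 2.55 and 2.20 in siControl and 11.4, 22.5 and 29.2 in siAATF, with means of 2.64 ± 0.501 and 21.0 ± 8.98. For Fdps it was 1.45 to 2.40 in siControl against 5.52 to 10.9 in siAATF, and for Fdft1 0.932 to 1.75 against 2.61 to 4.84. Sqle, whose CPM overlapped between groups, also separated on this scale, with 0.581 to 0.850 against 1.02 to 2.05. Lss had 0.250 to 0.386 against 0.815 to 1.64. Only the ratio of Idi1 overlapped, with 0.05 to 0.271 in siControl and 0.182 to 0.299 in siAATF. Thus 5 of the 6 enzymes were higher per Srebf2 count in every siAATF library, as were 34.7% of all genes tested. In a two-sided exact permutation test the 5 had p = 0.1 each, the smallest p that 3 libraries against 3 allow, and Idi1 had p = 0.2. Over the family of 20 enzyme ratios the adjusted values were 0.111 and 0.200.

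**Figure D3:**
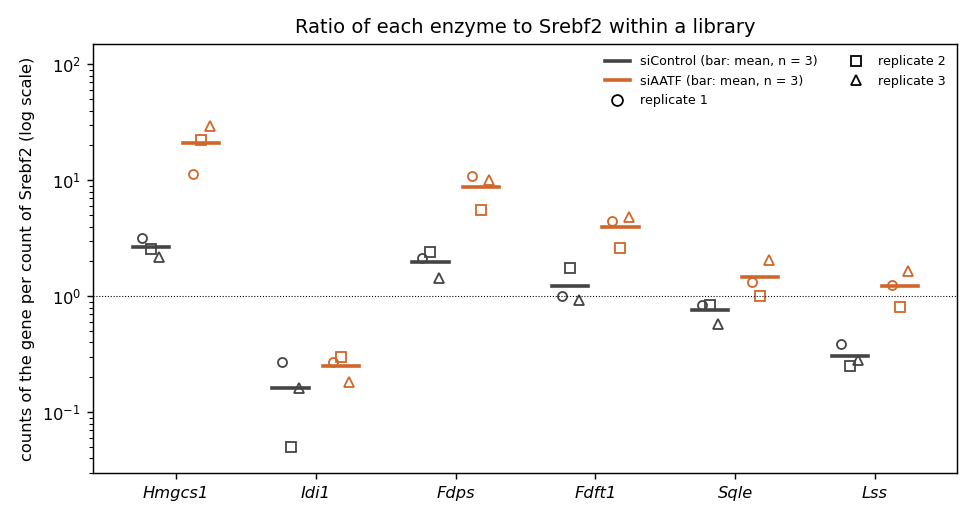
Counts of each enzyme per count of Srebf2 in each library (log scale), with a bar at the mean of each group (n = 3) and a dotted line at 1. The groups are apart for Hmgcs1, Fdps, Fdft1, Sqle and Lss and overlap for Idi1.

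Levels of different genes were compared per kilobase of exon (RPKM, from TMM-normalized CPM). In siControl the order of the mean levels was Fdps (75.8), Hmgcs1 (42.7), Fdft1 (16.9), Sqle (15.3), Srebf2 (11.1), Lss (3.73) and Idi1 (3.05). Neighbours in this order had separate ranges, except Fdft1 with Sqle and Lss with Idi1. In siAATF the order was Fdps (344), Hmgcs1 (336), Fdft1 (56.5), Sqle (30.7), Lss (15.3), Srebf2 (10.6) and Idi1 (4.17). There the ranges of Fdps and Hmgcs1 overlapped, as did those of Fdft1, Sqle, Lss and Srebf2 with their neighbours among these 4, while Hmgcs1 lay above Fdft1 and Srebf2 above Idi1 in every library. Lss and Srebf2 changed places between the groups.

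The siAATF libraries also differed among themselves. The highest library exceeded the lowest by 3.38 times for Hmgcs1, 3.48 for Fdps, 3.54 for Fdft1, 3.85 for Sqle and 3.84 for Lss, but by 1.91 for Srebf2 and 1.32 for Idi1. In siControl these factors were 1.25 to 1.79, apart from 6.31 for Idi1 with its few counts. Replicate 2 was the lowest siAATF library for 6 of the 7 members, all except Hmgcs1, and for 12 of 14 other synthesis enzymes, beside 43.7% of all genes tested. Replicate 3 was the highest for 6 of the 7 members, all except Idi1, and for 8 of the 14, beside 33.2% of all genes. Per Srebf2 count, replicate 2 was the lowest for 4 of the 6 enzymes among the members and for 7 of the 14. Replicate 2 also had the fewest mouse counts of the group, and the part of this in the spread was not tested. Of the 10 hepatocyte markers 5 were highest in replicate 1 and 5 in replicate 3.

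When CPM was computed over the human and mouse gene counts joined, every member was higher in every siAATF library, as were 83.9% of all genes tested, so that the count of 7 says little about the members. Hmgcs1 had 1.86 to 6.11 CPM in siControl and 342 to 1052 in siAATF, and Srebf2 had 0.731 to 2.16 against 15.2 to 36.1. The ratio of the group means ran from 18.2 for Srebf2 to 142 for Hmgcs1, and the mouse share of all counts was higher in the same group.

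The other enzymes of the pathway were taken from a list of 14 genes between acetyl-CoA and cholesterol. Of these 11 were called higher and 0 lower, beside 17.6% and 14.4% of all genes, with 13 of 14 above 0 and a median log2 fold change of 1.90, beside 0.50 over all genes. Before the lanosterol step these were Acat2 (1.48), which makes acetoacetyl-CoA, the mevalonate kinase Mvk (1.74) and the decarboxylase Mvd (1.87). Mvd varied least of them between the libraries of a group, at 21.4 ± 2.46 CPM against 78.7 ± 6.94 in siAATF (adjusted p = 0.00176, edgeR). Its siControl counts were 30, 8 and 37. Its log2 fold change was 0.53 thinned (adjusted p = 0.523, edgeR) and 0.05 with library size alone (adjusted p = 0.926, edgeR).

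After lanosterol the called genes included the sterol reductase Tm7sf2 (3.01), the demethylation enzymes Msmo1 (1.89), Nsdhl (2.11) and Hsd17b7 (2.25), the isomerase Ebp (3.57), the desaturase Sc5d (2.95) and the reductase Dhcr7 (2.69). Ebp had the largest log2 fold change of the 20 enzymes examined, from 24.1 ± 8.35 to 297 ± 115 CPM (standard error 0.51, adjusted p = 0.000270, edgeR). Of the 3 genes not called, the demethylase Cyp51 had the largest mean CPM, at 105 ± 15.0 CPM against 233 ± 127 in siAATF (log2 fold change 1.15, adjusted p = 0.0991, edgeR). Counting the 6 enzymes among the members, 15 of 20 were called higher, beside 17.6% of all genes. The range was -0.76 to 3.57, all below the median of the hepatocyte markers, 4.52, but overlapping the range of these markers, 2.83 to 7.16. Whether a larger share of hepatocyte RNA accounts for the rise was not tested. Scaling by library size alone left 1 of the 14 called higher and 1 lower (4.15% and 40.4% of all genes), and 7 were called without siControl replicate 3 (18.8% of all genes). Acat2 lost its call without any 1 of the siControl libraries (adjusted p of up to 0.133, edgeR), Msmo1 without replicate 2 or 3 (up to 0.0546) and Mvk without replicate 3 (0.0638).

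**Figure D4:**
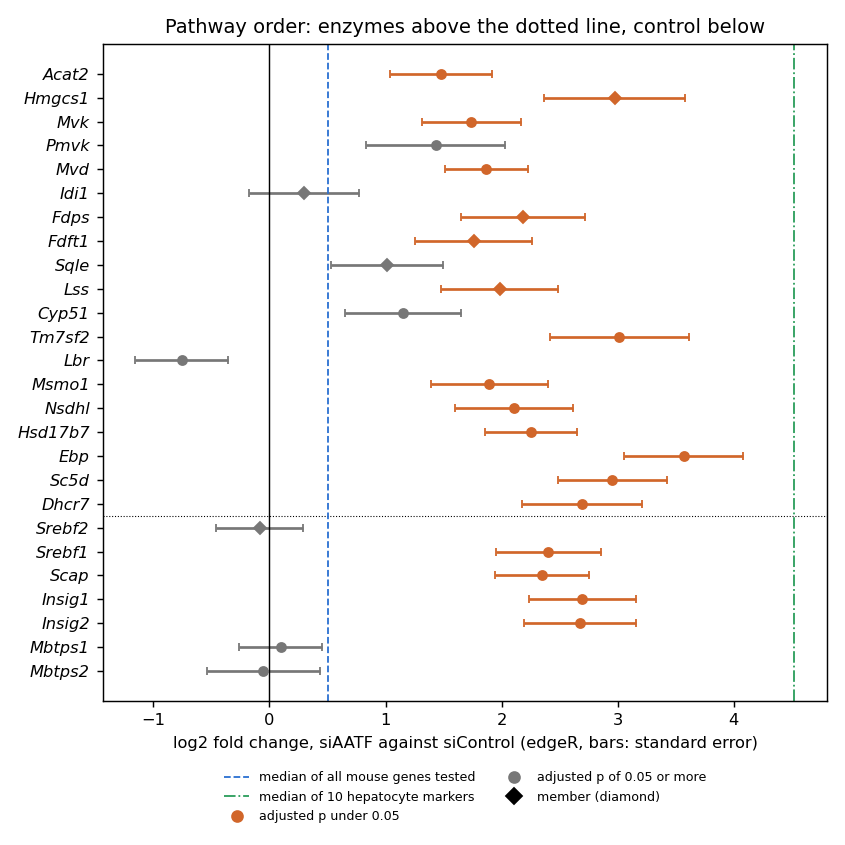
Log2 fold change between siAATF and siControl with its standard error for 19 enzymes in pathway order (above the dotted line) and 7 genes of SREBP control (below it), with diamonds for members and orange for an adjusted p under 0.05. Dashed lines mark the medians of all genes tested (0.50) and of 10 hepatocyte markers (4.52), and Srebf2, Mbtps1 and Mbtps2 lie near 0.

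Among 10 genes that act on the SREBP proteins, 6 were called higher and 0 lower, beside 17.6% and 14.4% of all genes (median log2 fold change 1.61). Srebf1, the sister gene of Srebf2 and a regulator of fatty acid synthesis, stood at 36.7 ± 7.997 CPM against 197 ± 88.3 in siAATF (2.40 on the log2 scale, adjusted p = 0.00158, edgeR). The escort Scap (2.35), the retention proteins Insig1 (36.4 ± 10.5 against 241 ± 87.4 CPM) and Insig2 (2.67), and Erlin1 (1.51), a protein of the endoplasmic reticulum membrane, were also called. The proteases that cut SREBP were not called, with 0.10 for Mbtps1 and -0.05 for Mbtps2, and Mbtps1, with the largest mean CPM of those not called, had 40.2 ± 6.00 against 43.4 ± 11.4 CPM. With library size alone 0 of the 10 were called higher and 2 lower, beside 4.15% and 40.4% of all genes, and Erlin1 lost its call without siControl replicate 2 or 3 (adjusted p of up to 0.175, edgeR).

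Of 10 genes of lipoprotein uptake and cholesterol handling in the cell, 2 were called higher and 2 lower, beside 17.6% and 14.4% of all genes, and the median was -0.18 on the log2 scale. The sterol carrier Stard4 (1.58) and the lysosomal lipase Lipa (1.36) were higher. Mylip, a ligase that degrades lipoprotein receptors, was lower at 19.6 ± 9.68 against 4.31 ± 2.23 CPM, and so was the lysosomal cholesterol carrier Npc2, at 474 ± 75.6 against 69.3 ± 33.2 CPM (log2 fold change -2.77, adjusted p = 0.00121, edgeR). With library size alone 0 were called higher and 6 lower, beside 4.15% and 40.4% of all genes. Lipa lost its call without siControl replicate 2 or 3 (adjusted p of up to 0.155, edgeR), and Mylip without siControl replicate 1 (0.0527). Lrp1, a large endocytic receptor, had the largest mean CPM of those not called, without correction for length, with 409 ± 19.8 CPM against 597 ± 229 in siAATF (log2 fold change 0.54, adjusted p = 0.398, edgeR).

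The likeness of other genes to the members was measured by Pearson's r over the 6 libraries, between log2(CPM + 1) and the mean centred profile of the members, among the 3547 genes for which every library held 10 counts or more. Of the 5 nearest genes, Dap (0.99), Arl1 (0.99), Micos10 (0.99) and Rps27l (0.99) are given. Dap had 104 to 153 CPM in siControl and 361, 198 and 669 in siAATF replicates 1 to 3, with the same order of the siAATF libraries as Fdps. These values rest on 6 libraries in 2 groups that stand apart, and are a description.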

How the data were processed

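Total RNA of 6 liver libraries was made into cDNA with a SMART-Seq kit. The authors trimmed reads with Cutadapt, aligned them with STAR 2.7.11 to GRCh38 and GRCm39 joined, dropped reads placed in several sites or in both species, and deposited raw gene counts from featureCounts 2.0.1, with exon lengths, as a human and a mouse table. Versions are from the submitters' processing notes. The mouse table was counted on GENCODE release 33. Names came from release 39, for 56323 of 56884 genes. The human table served for totals only, with 1 broken gene left out, and human genes were not analysed further here.

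The members and lists were chosen with earlier results of these data known. The mouse counts were tested with edgeR 4.0.16 (limma 3.58.1, R 4.3.3), with TMM factors, genes of at least 10 counts in total and the group alone as a term, and p-values were adjusted over all 18018 genes. Standard errors are no output of this test. They are the absolute log2 fold change divided by the square root of its F statistic. Named were the members, every called gene of the other lists, the gene with the largest mean CPM of those not called in each, the 5 genes most like the members, and Aatf. Of these, 3 genes are not reported here, but counts over the lists include them. On simulated counts of 17351 genes, 66% of 197 genes with a set log2 change of 3 were called with the right sign. Of the 17154 unchanged genes, 7 were called. Only those 197 of the genes tested there were changed, while 32.0% of all genes were called in the measured libraries. Whether these rates hold for libraries with TMM factors as far apart as 0.419 and 1.97 was not tested. Alternatives were RLE and upper-quartile factors, library size alone, 3 other filters, DESeq2 1.42.0, limma-voom, the replicate number as a block, thinning to 213022 counts, the threshold of the study, and each library left out. Python 3.11.15, scipy 1.17.1 and matplotlib 3.10.9 were used.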

Additional observations from a re-analysis of the deposited data

How the results depend on the processing

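In 3 siControl libraries with at most 913584 mouse counts, genes such as Idi1 and Lss rest on few reads, and every difference is bound to the change in tumor share between the groups. Of the 7 members 4 were called, against 2 when all libraries were thinned, 2 by the threshold of the study and 1 to 5 with a library left out. With library size alone 2 were called, both lower. Of all genes tested, 32.0% were called, 31.5% thinned, 18.8% to 35.7% with a library left out, and 4.15% higher and 40.4% lower with library size alone. The share was 49.1% with at least 10 counts in every library and 25.4% without a filter. By the threshold of the study 13.6% were called higher and 13.1% lower. The other synthesis enzymes numbered 11, and 2 with library size alone, 4 of 5 tested with at least 10 counts in every library, 6 thinned, 6 by the threshold of the study and 7 to 13 with a library left out. SREBP control genes numbered 6 and 2 with library size alone. Lipoprotein genes numbered 4 (2 higher, 2 lower), 1 thinned and 6 with library size alone, all lower. Efflux and disposal genes numbered 11 (8 higher, 3 lower), and 2 of 3 tested, both lower, with at least 10 counts in every library. Non-sterol genes numbered 0, and 5, all lower, with library size alone, 1 without a filter, 1 thinned and 0 to 2 with a library left out.

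The median of all genes, 0.50, was 0.40 with RLE, 0.23 with upper-quartile factors, -1.30 with library size alone, 0.11 when each library had to hold 10 counts, 0.21 with filterByExpr, 1.16 without a filter, 0.29 with DESeq2, -0.0896 with limma-voom, -0.31 thinned and 0.47 to 0.60 with a library left out. Of the genes called, 55.0% were higher, 44.8% with upper-quartile factors, 9.31% with library size alone, 45.0% with limma-voom and 40.6% thinned.

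Library size alone reversed Idi1 (-1.45), Fdft1 (-0.0076), Sqle (-0.77), Acat2 (-0.27), Mvk (-0.0366), Cyp51 (-0.60), Erlin1 (-0.23), Mbtps1 (-1.67), Lipa (-0.40), Stard4 (-0.24), Lrp1 (-1.31), Soat2 (-0.40) and Abca1 (-1.63), and thinning reversed Sqle (-0.0517), Mbtps1 (-1.01), Lrp1 (-0.10) and Abca1 (-0.45). Srebf2, near 0, turned to 0.0114 without a filter, 0.0229 without siControl replicate 3 and 0.17 without siAATF replicate 2. Mbtps1 turned to -0.027 with RLE, -0.21 with upper-quartile factors, -0.0304 with filterByExpr, -0.0297 with DESeq2, -0.0034 with limma-voom and -7.82e-05 without siControl replicate 2, and Abca1 to -0.15 with upper-quartile factors, -0.12 without siControl replicate 2 and -0.0339 without siControl replicate 3. With a library left out, Mbtps1 ran from -7.82e-05 to 0.35, Abca1 from -0.12 to 0.62 and Srebf2 from -0.27 to 0.17. Another scaling shifts every gene by construction, and for thinning and the other alternatives the cause was not tested. Over 42 named genes and 16 alternatives, direction and side of the threshold were kept 561 times, a call was lost 62 times and gained 8 times, reversals included.

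Same-numbered libraries of the groups did not deviate together in every pair (correlations of 0.15, 0.21 and -0.02), so the numbers were not taken as pairs. With the replicate number as a block 6766 genes were called in place of 5762, with 4 members as before and 1 non-sterol gene (Pggt1b), and siControl replicate 1 correlated best with siAATF replicate 3.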

Other observations

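Genes that store, export or convert cholesterol moved in both directions. Of 14 such genes 8 were called higher in siAATF and 3 lower (edgeR, adjusted p under 0.05, beside 17.6% and 14.4% of all genes). Those higher were the bile acid enzymes Cyp27a1 (log2 fold change 3.15), Cyp7b1 (3.73), Cyp7a1 and Cyp8b1, the biliary sterol exporters Abcg8 (3.06) and Abcg5, the nuclear receptor Nr1h3 (2.72) and the esterification enzyme Soat2 (1.51). Hepatocyte markers were higher between the same groups for 10 of 10 genes (median log2 fold change 4.52), and their part in these rises was not tested. With library size alone 5 of the 14 were called higher and 5 lower, beside 4.15% and 40.4% of all genes. Cyp7a1, the rate-limiting enzyme of bile acid synthesis, was counted 11, 0 and 0 times in the siControl libraries against 3634, 1559 and 1251 in siAATF. Cyp8b1 had 4, 0 and 2 counts against 13074, 686 and 1503, and Abcg5 had 3, 0 and 1 against 495, 79 and 924, so that the size of their rises is uncertain. Cyp8b1 and Abcg5 passed the filter of 10 counts only through the far deeper siAATF libraries, so that their calls are given as a description. None of the 8 genes higher was tested when every library had to hold 10 counts. The call of Soat2, whose groups overlapped, was lost under 10 of 15 alternatives, among them RLE factors (adjusted p = 0.0658, edgeR) and DESeq2 (adjusted p = 0.0666), over a range of 0.00345 to 0.880 across the alternatives.

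Those lower were Soat1 (-4.12), the widely expressed esterification enzyme, Abcg1 (-3.22), a sterol exporter of macrophages and other cells, and Ch25h, which makes an oxysterol in activated macrophages. Ch25h was counted 70, 25 and 149 times in siControl against 5, 1 and 1 in the far deeper siAATF libraries. Macrophage markers fell between the same groups for 6 of 6 genes, and their part in these falls was not tested. Abca1, which had the largest mean CPM of the genes not called, a scale without correction for length, had 80.7 ± 42.2 CPM in siControl and 88.9 ± 12.6 in siAATF (SD, n = 3).

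Of 9 genes that carry mevalonate products to dolichol, ubiquinone or prenylated proteins, 0 were called by edgeR (32.0% of all genes were) and 0 by DESeq2 or limma-voom, and Pggt1b alone had an unadjusted p under 0.05. With library size alone 5 of the 9 were called, all lower, beside 40.4% of all genes called lower. Their median log2 fold change was 0.39, close to the 0.50 of all genes. Nus1, a subunit of the enzyme that makes dolichol precursors and the gene of the largest mean CPM over the 6 libraries among the 9, had 52.5 ± 10.6 CPM in siControl and 43.1 ± 9.93 in siAATF (SD, n = 3).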
